A study of Mus musculus with 12 samples.

Results

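Stattic was set directly against Kira8 in mouse Th17 cells to ask which genes and pathways tell these inhibitors apart. All 12 libraries of the study were RNA sequencing libraries of Th17 cells differentiated from naive T cells of wild-type lymph nodes. The comparison used the 3 libraries given Stattic and the 3 given Kira8, 6 of the 12, and was repeated on 4 of them without replicate 2 of each. The other groups were the combination, Kira8+Stattic, and cultures with no inhibitor, None, with 3 libraries each, and their levels are given as context only. Inhibitors were applied for 4 h. The sources used here do not give doses, the solvent or the polarising cytokines. A difference below is therefore one between treatments at single unstated doses. No label says that replicates were separate cultures or animals, so p-values measure the spread between these libraries, which may be technical.

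Stattic is a small-molecule inhibitor of STAT3, the transcription factor that IL-6, IL-21 and IL-23 activate through Janus kinases and that Th17 cells need for their differentiation. Kira8 is a kinase inhibitor that attenuates the RNase of IRE1alpha, the endoplasmic reticulum (ER) stress sensor encoded by Ern1, which splices Xbp1 mRNA and cleaves other ER-bound mRNAs. Each compound thus acts on the activity of a protein and not on its mRNA, and the mRNA level of Stat3 or Ern1 does not check its action. They are not structural analogs.

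Library measures set replicate 2 of both groups apart. The other 10 libraries held 51.7 to 85.9 M counts and 3.38% to 5.22% mitochondrial counts, while Stattic 2 held 9.3 M with 10.66% mitochondrial and Kira8 2 held 19.8 M with 61.55%. Their Spearman correlations with those 10 libraries, across 21589 genes that are not independent replicates, were 0.27 to 0.30 for Stattic 2 and 0.34 to 0.37 for Kira8 2, against 0.91 to 0.98 among the 10. Levels are CPM, counts scaled to library size by edgeR's TMM factors, for Stattic replicates 1 and 3 and then Kira8 replicates 1 and 3. Log2 changes are Stattic over Kira8 ± their standard error, from edgeR's quasi-likelihood test in the 10 libraries (n = 2 for Stattic and for Kira8), and genes with a p below 0.05 after Benjamini-Hochberg adjustment over the whole table were called.

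T cell identity was present in all 4 libraries. The 14 genes of the T cell receptor complex summed to 4973 and 4118 CPM with Stattic and to 4018 and 3865 CPM with Kira8. Of the 14, 5 were higher with Stattic, 1 was lower and 8 were not called, including Cd3e and Cd4. The share called was 42.9%, against 28.7% of all genes tested and 40.2% of those averaging at least 1 CPM in the 4 libraries. Markers of other cells are read against the 13.7% of all genes tested that were called higher with Stattic and the 15.1% called lower. The 15 B cell markers summed to 185 and 83.2 CPM with Stattic and to 266 and 221 CPM with Kira8, and 6 of them were lower, which became 0 without Stattic 3 or Kira8 1 and 2 without Kira8 3. The 15 markers of CD8 T cells, NK cells or both summed to 903 and 712 CPM with Stattic and to 283 and 241 CPM with Kira8, and of 14 tested 10 were higher. Ncr1, an NK receptor, was at 0 in all 4, while the NK gene Klrb1c was called higher with Stattic. The log2 change of Klrb1c was 2.13 without Stattic 3 and 4.45 without Stattic 1, and its call depended on the library left out. The 18 myeloid and dendritic markers summed to 74.9 and 55.0 CPM with Stattic and to 106 and 104 CPM with Kira8, with 3 of 18 lower (1 without Stattic 3 or Kira8 1) and C1qa at 0 in all 4. The 11 stromal and endothelial markers summed to 633 and 559 CPM with Stattic and to 398 and 359 CPM with Kira8, and 2 of 6 tested were higher (1 without Kira8 3). Erythroid markers summed to at most 1.74 CPM. The part of such cells in the results below was not tested, and in bulk RNA fewer cells of a type and less RNA per cell cannot be told apart.

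In the 10 libraries, 6106 of 21239 genes (28.7%) differed between Stattic and Kira8. Of these, 2906 (13.7% of those tested) were higher with Stattic and 3200 (15.1%) were lower. A raw p below 0.05 was reached by 8544 genes (40.2%), and Stattic and Kira8 libraries did not overlap for 14133 (66.5%). The larger changes leaned to the higher side, with 1061 genes (5.0%) at least 4-fold higher and 445 (2.1%) at least 4-fold lower among the called. Many of the largest were faint transcripts: of 444 called genes (2.09%) at least 16-fold higher, 345 averaged under 1 CPM in the 4 libraries. Among 13476 genes averaging at least 1 CPM, 2364 were higher and 3058 lower, so 40.2% were called. Shares called in the lists below are read against 28.7% of all genes tested and against this 40.2%. The median log2 change of all genes tested was 0.09 and the median size 0.78. With all 12 libraries the edgeR calls were 0 of 20993 (0.0%), although 2491 genes (11.9%) had a raw p below 0.05. On the same 12 libraries DESeq2 called 1604 genes and limma voom with library quality weights 6810. Of these 6810, 5524 were among the 6106, every one in the same direction. The 10 libraries that gave the 6106 are part of the 12, and quality weights count outlying libraries less, so this overlap is not independent. Leaving out Kira8 3 lowered the calls of the 10 libraries to 1318 higher and 1862 lower. With a library left out, counts of called genes under 5 in a list often changed by more than 1.5 times. Scaling by library size alone put the median log2 change of all genes at -0.01, gave 2304 higher and 3787 lower, and so 37.8% of calls on the higher side in place of 47.6%.

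**Figure D1:**
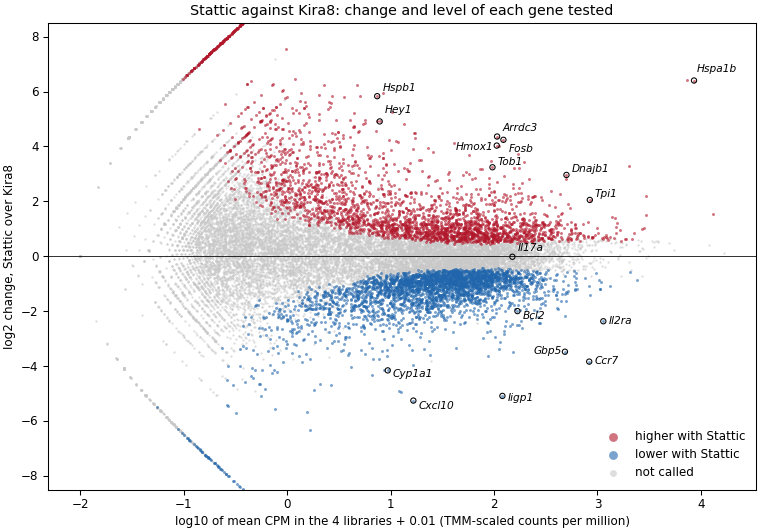
Change between Stattic and Kira8 (vertical axis, log2 of Stattic over Kira8) against mean level in the 4 libraries (horizontal axis, log10 of CPM + 0.01) for each of 21239 genes tested in the 10-library fit, with genes called higher in red, called lower in blue and the rest in grey. The HSP70 gene Hspa1b lies at the upper right with a log2 change of 6.40, Iigp1 and Cxcl10 lie lowest among the labelled genes, Il17a lies on the zero line, diagonal lines at the left are genes with no counts in 1 of the groups, and 78 genes lie beyond the vertical limits.

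Transcripts of the cytosolic heat shock response were higher with Stattic. This response is run by HSF1, a transcription factor that binds heat shock elements and switches on the chaperones that refold proteins in the cytosol. Of 27 HSF1 targets and cytosolic chaperones tested, 16 were higher with Stattic, 3 were lower and 8 were not called. The share called was 70.4% and the median log2 change 0.95. Hspa1b (ENSMUSG00000090877, chromosome 17, 34956436 to 34959238, minus strand), an inducible HSP70, had 12821 and 21138 CPM with Stattic, against 127 and 275 CPM with Kira8. It was 84.5-fold higher (log2 change 6.40 ± 1.01, adjusted p = 0.000792), and without Kira8 3 the log2 change was 7.05. Its near-identical neighbour Hspa1a had 11177 and 17623 CPM with Stattic, against 113 and 227 CPM with Kira8. Reads of this pair may have been split between them, so their separate levels are uncertain. Together the pair took 2.23% and 3.74% of all counts with Stattic, against 0.025% and 0.0521% with Kira8. In None, Hspa1b averaged 41.6 ± 33.2 CPM (SD, n = 3), so Kira8 libraries stood above None as well, by a log2 change of 2.27 ± 0.73 that passed the test only narrowly (adjusted p = 0.0469).

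Co-chaperones on the same list went both ways. Dnajb1, an HSP40 that delivers clients to HSP70, had 766 and 1014 CPM with Stattic, against 101 and 128 CPM with Kira8 (log2 change 2.96 ± 0.28, adjusted p = 4.68e-05). Its relative Dnajb4 had 86.9 and 106 CPM with Stattic, against 10.5 and 12.7 CPM with Kira8 (log2 change 3.06 ± 0.23, adjusted p = 1.72e-05). Bag3, the nucleotide exchange factor that links HSP70 to autophagy, had 281 and 353 CPM with Stattic, against 17.1 and 30.3 CPM with Kira8 (log2 change 3.74 ± 0.35, adjusted p = 4.43e-05). The groups did not overlap for these 3 genes, as for 66.5% of all genes tested, and the None mean lay below both inhibitors for each: 75.4 ± 5.43 CPM for Dnajb1, 6.78 ± 0.708 for Dnajb4 and 14.7 ± 1.15 for Bag3 (SD, n = 3). Hsph1, an HSP110 exchange factor, was 9.74-fold higher (log2 change 3.28 ± 0.45, adjusted p = 0.000357) and Hsp90aa1, the inducible HSP90, 4.58-fold (log2 change 2.20 ± 0.34, adjusted p = 0.000696). The constitutive Hspa8 and Hsp90ab1 were not called, at 5117 and 6331 CPM with Stattic against 3561 and 4648 CPM with Kira8 for Hspa8 (adjusted p = 0.2) and with a log2 change of 0.57 ± 0.21 for Hsp90ab1 (adjusted p = 0.0629, and 0.0414 without None 1). The small heat shock protein Hspb1 was 56.7-fold higher (log2 change 5.83 ± 1.60, adjusted p = 0.0177), a call that ended without Kira8 1 (adjusted p = 0.102), Kira8 3 (0.107) or Stattic 3 (0.0552). The lower members were Dnajb2 (-1.69 ± 0.19), Hsf1 itself (-1.04 ± 0.17, with 25.6 and 22.4 CPM with Stattic, against 49.2 and 49.2 CPM with Kira8) and Hsf2, whose call ended without Kira8 3 (adjusted p = 0.123) or Stattic 1 (0.139).

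The windows below run from 250 bases before to 50 bases after the start of a pair of the heat shock genes, from RefSeq on GRCm38.p6 (the mm10 assembly), and are shown because the letters of a heat shock element stand in them. Capitals mark GAANNTTC, searched on both strands, the head-to-head pair of units at the centre of such an element. The Hspa1b window (chr17:34959189-34959488, minus strand) holds it 1 time and the Hspb1 window (chr5:135887669-135887968, plus strand) 2 times.
Hspa1b: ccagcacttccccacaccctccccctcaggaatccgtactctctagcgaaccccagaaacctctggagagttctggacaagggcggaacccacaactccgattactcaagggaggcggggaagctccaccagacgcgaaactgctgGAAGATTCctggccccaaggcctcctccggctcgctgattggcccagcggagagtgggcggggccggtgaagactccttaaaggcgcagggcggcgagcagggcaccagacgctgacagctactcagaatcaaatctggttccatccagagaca
Hspb1: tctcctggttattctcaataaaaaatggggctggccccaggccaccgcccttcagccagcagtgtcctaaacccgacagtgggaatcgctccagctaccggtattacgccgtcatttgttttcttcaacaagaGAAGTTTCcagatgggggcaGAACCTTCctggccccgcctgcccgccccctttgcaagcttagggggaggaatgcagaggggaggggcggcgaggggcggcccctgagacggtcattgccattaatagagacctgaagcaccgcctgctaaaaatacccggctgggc
Of the 28 genes in the list 23 had a window, and 12 of the 23 (52.2%) held this motif, against 9.04% of 27025 genes and 7.86% of 32851 windows in the RefSeq table. A match is a description of the letters only.

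Of 26 NRF2 and electrophile response genes tested, 38.5% were called, against 28.7% of all genes and 40.2% of those averaging at least 1 CPM. In this list 7 were higher and 3 lower, and the 7 became 4 without Stattic 1, 3 without Kira8 1 and 2 without Kira8 3. Hmox1, the haem oxygenase, stood out with 161 and 240.0 CPM with Stattic, against 10.6 and 14.1 CPM with Kira8 (log2 change 4.03 ± 0.45, adjusted p = 0.000119) and with a None mean of 10.1 ± 3.15 CPM (SD, n = 3). Gsr, glutathione reductase, went the other way with 20.6 and 23.0 CPM with Stattic, against 38.8 and 51.0 CPM with Kira8 (log2 change -1.04 ± 0.20, adjusted p = 0.00251). Of 31 proteasome subunits 0 were higher and 5 (16.1%) lower by edgeR, against 15.1% of all genes tested called lower. Among genes averaging at least 1 CPM, 40.2% were called in either direction. The count lower fell without Stattic 3 or without Kira8 3.

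Lower with Stattic were the interferon-inducible GTPases, the IRG and GBP proteins that attack vacuoles of intracellular pathogens and that interferon-gamma induces through IRF1. Of 18 tested, 17 were lower with Stattic, 0 were higher and 1 was not called (94.4% called), with a median log2 change of -2.44. Iigp1 (ENSMUSG00000054072), an IRG effector, had 8.03 and 5.72 CPM with Stattic, against 248 and 221 CPM with Kira8, a 34.1-fold higher level with Kira8 (log2 change -5.09 ± 0.31, adjusted p = 7.97e-06). Tgtp1 had 26.5 and 24.3 CPM with Stattic, against 289 and 277 CPM with Kira8 (log2 change -3.48 ± 0.23, adjusted p = 7.97e-06). Its near-identical copy Tgtp2, with which it may share reads, had 24.2 and 23.0 CPM with Stattic, against 219 and 196 CPM with Kira8. Gbp5, which promotes inflammasome assembly, had 86.6 and 73.4 CPM with Stattic, against 927 and 855 CPM with Kira8 (log2 change -3.48 ± 0.25, adjusted p = 1.6e-05). None averaged 378 ± 71.0 CPM for Iigp1, 413 ± 62.0 for Tgtp1 and 416 ± 70.7 for Gbp5 (SD, n = 3), so Kira8 lay below None for the first 2 and above it for Gbp5. The smallest called change of the family was in Gbp3 (-0.88 ± 0.16). Gbp2 had 1372 and 1154 CPM with Stattic, against 1924 and 2258 CPM with Kira8 and missed the threshold (adjusted p = 0.051, and 0.0121 to 0.0404 without any 1 of the None libraries). The GBP genes lie in clusters of similar sequence, so single members are less certain than the group.

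Other genes of interferon signalling and MHC control were picked with their values known. Irf1, the transcription factor that binds interferon elements, had 77.0 and 78.6 CPM with Stattic, against 405 and 353 CPM with Kira8 (log2 change -2.28 ± 0.19, adjusted p = 2.75e-05). Stat2 had 38.9 and 40.4 CPM with Stattic, against 125 and 120.0 CPM with Kira8 (log2 change -1.63 ± 0.21, adjusted p = 0.000241). The coactivator of MHC class I genes, Nlrc5, had 45.3 and 53.2 CPM with Stattic, against 250.0 and 314 CPM with Kira8 (log2 change -2.52 ± 0.31, adjusted p = 0.000177). Cxcl10, the interferon-induced ligand of CXCR3, had 1.06 and 0.636 CPM with Stattic, against 30.7 and 34.1 CPM with Kira8 (log2 change -5.26 ± 0.46, adjusted p = 3.65e-05). Ciita, the master coactivator of MHC class II, was lower at 1.54 and 1.21 CPM with Stattic, against 19.3 and 14.7 CPM with Kira8 (log2 change -3.62 ± 0.45, adjusted p = 0.000202), and it is also expressed by B cells, 6 of whose 15 markers were lower as given above. The remaining interferon-stimulated genes did not all follow. Of 32 on that list 6 were higher, 10 lower and 16 not called. Among those higher, the antiviral gene Rsad2 had 7.15 and 6.98 CPM with Stattic, against 0.667 and 0.968 CPM with Kira8 (log2 change 3.11 ± 0.38, adjusted p = 0.000184, but a log2 change of -1.18 in all 12 libraries). Mx2 had 5.08 and 6.36 CPM with Stattic, against 0.928 and 1.6 CPM with Kira8 (log2 change 2.18 ± 0.41, adjusted p = 0.00223). Among those lower, Parp14 had 32.3 and 29.4 CPM with Stattic, against 216 and 222 CPM with Kira8 (log2 change -2.83 ± 0.26, adjusted p = 3.91e-05). Without Kira8 1 the 6 higher became 3.

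STAT sites and interferon elements were searched for in the same windows, and 3 of these are shown because they belong to genes far lower with Stattic. Capitals mark TTCNNNGAA, the palindrome that STAT dimers bind, which stands 1 time in the window of Tgtp1 (chr11:48992197-48992496, minus strand), 2 times in that of Gbp5 (chr3:142496684-142496983, plus strand) and 1 time in that of Irf1 (chr11:53769764-53770063, plus strand).
Tgtp1: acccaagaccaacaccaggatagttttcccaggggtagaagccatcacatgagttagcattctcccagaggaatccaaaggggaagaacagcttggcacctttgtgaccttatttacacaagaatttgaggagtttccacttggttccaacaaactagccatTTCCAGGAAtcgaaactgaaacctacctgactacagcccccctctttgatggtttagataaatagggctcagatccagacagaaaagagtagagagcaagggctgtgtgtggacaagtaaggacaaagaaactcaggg
Gbp5: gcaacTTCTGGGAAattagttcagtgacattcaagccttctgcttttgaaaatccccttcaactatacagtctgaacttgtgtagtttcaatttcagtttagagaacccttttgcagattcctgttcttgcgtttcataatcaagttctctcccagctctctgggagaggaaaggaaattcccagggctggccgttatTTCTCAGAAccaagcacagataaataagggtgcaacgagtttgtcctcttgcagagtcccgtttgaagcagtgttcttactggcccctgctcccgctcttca
Irf1: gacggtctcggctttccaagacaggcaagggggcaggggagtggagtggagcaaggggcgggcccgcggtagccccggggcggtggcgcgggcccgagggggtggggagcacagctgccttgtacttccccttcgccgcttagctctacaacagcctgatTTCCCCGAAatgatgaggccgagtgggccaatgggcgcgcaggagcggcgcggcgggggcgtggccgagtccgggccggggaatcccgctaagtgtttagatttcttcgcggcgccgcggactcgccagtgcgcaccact
Of the 18 GTPase genes in the list 10 had a window, and 6 of the 10 (60.0%) held TTCNNNGAA, against 9.55% of all genes. The core of an interferon element, GAAA and GAAA with 2 bases between, stood in 9 (90.0%), against 3.99% of all genes. A match describes the letters only, and binding was not tested. Both searches covered both strands, and the motifs can overlap in a window. Irf1 has 2 windows, and the one shown was chosen by its number of matches.

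**Figure D2:**
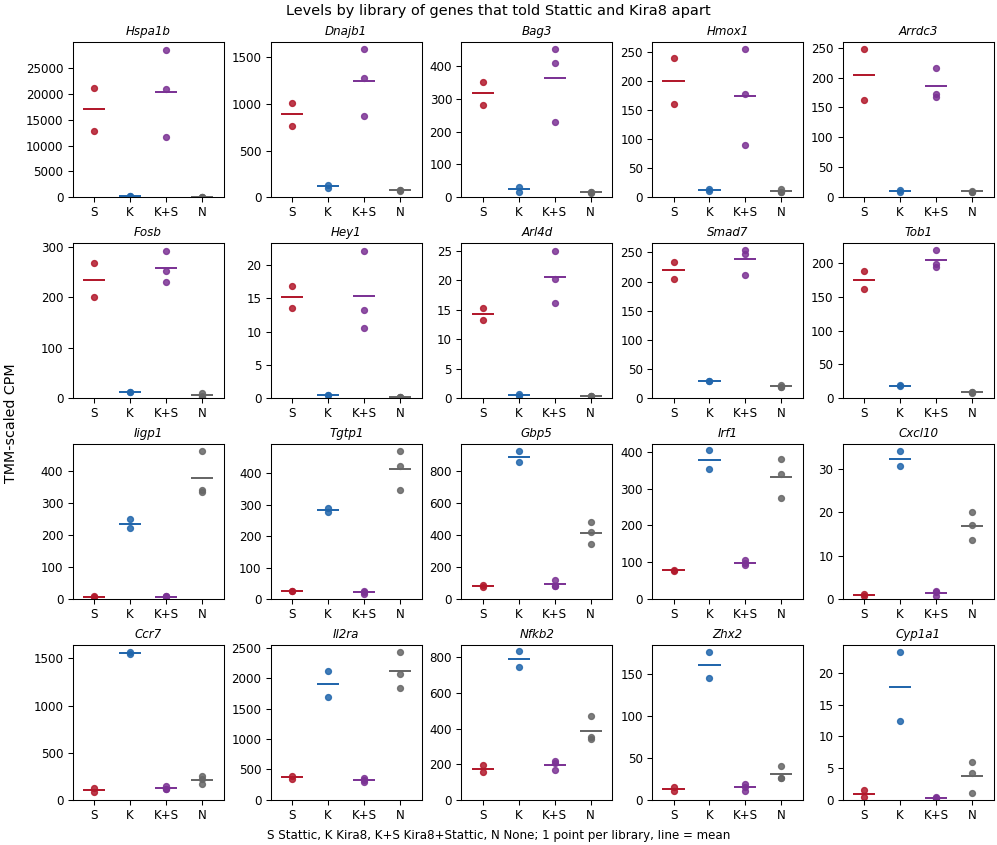
Levels (vertical axes, TMM-scaled CPM from 0) of 20 genes that differed between the inhibitors, with 1 point per library and a line at the mean for Stattic (S, n = 2), Kira8 (K, n = 2), Kira8+Stattic (K+S, n = 3) and None (N, n = 3). In the first 2 rows Stattic libraries stand above Kira8 and None libraries; in the lower rows Stattic libraries stand below Kira8 libraries, and for Ccr7 and Zhx2 the Kira8 libraries stand far above None.

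Among JAK-STAT genes, 11 of 25 STAT genes and feedback genes tested were lower with Stattic, 2 were higher and 12 were not called. The share called was 52.0% and the median log2 change -0.58. Cish, a feedback inhibitor that STAT5 induces, had 180.0 and 183 CPM with Stattic, against 462 and 498 CPM with Kira8 (log2 change -1.40 ± 0.15, adjusted p = 9.39e-05). Pim1, a survival kinase and common STAT target, had 203 and 213 CPM with Stattic, against 619 and 607 CPM with Kira8 (log2 change -1.56 ± 0.16, adjusted p = 6.28e-05). Stat5a had 107 and 103 CPM with Stattic, against 386 and 446 CPM with Kira8 (log2 change -1.99 ± 0.20, adjusted p = 5.86e-05). None averaged 451 ± 4.93 CPM for Cish, 304 ± 14.5 for Pim1 and 225 ± 30.9 for Stat5a (SD, n = 3). For Pim1 and Stat5a the None mean lay between the inhibitors, and for Cish it lay near the Kira8 values. Il2ra, the IL-2 receptor alpha chain that STAT5 induces, had 395 and 345 CPM with Stattic, against 1698 and 2125 CPM with Kira8 (log2 change -2.37 ± 0.21, adjusted p = 3.65e-05) and a None mean of 2117 ± 304 CPM (SD, n = 3). Socs3, the feedback gene most often used to read STAT3 activity, was not called: it had 122 and 131 CPM with Stattic, against 97.0 and 86.0 CPM with Kira8, with a 95% interval of the log2 difference of 0.05 to 0.88 (adjusted p = 0.0852, and 0.0385 without None 2).

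Genes listed here as STAT3 targets split evenly, with 61.5% called. Of 26 tested 8 were higher, 8 lower and 10 not called, with a median log2 change of -0.01, and without Kira8 1 the 8 higher became 5. Maf, the Th17 factor that drives Il10, was lower and had 158 and 143 CPM with Stattic, against 414 and 455 CPM with Kira8 (log2 change -1.53 ± 0.19, adjusted p = 0.00019). Bcl3 had 45.8 and 31.8 CPM with Stattic, against 120.0 and 116 CPM with Kira8 (log2 change -1.60 ± 0.29, adjusted p = 0.00187). The aryl hydrocarbon receptor Ahr was higher and had 180.0 and 222 CPM with Stattic, against 46.4 and 43.6 CPM with Kira8 (log2 change 2.16 ± 0.20, adjusted p = 4.43e-05). Il6st, the signalling chain of the IL-6 receptor known as gp130, had 251 and 393 CPM with Stattic, against 52.2 and 49.0 CPM with Kira8 (log2 change 2.67 ± 0.34, adjusted p = 0.000227). The STAT3 transcript itself was not called, with 538 and 496 CPM with Stattic, against 486 and 467 CPM with Kira8 and an interval of -0.25 to 0.48.

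Th17 genes were divided between the inhibitors. Of 24 tested 6 were higher with Stattic, 7 lower and 11 not called. The share called was 54.2%, against 28.7% of all genes tested and 40.2% of those averaging at least 1 CPM. The chemokine Ccl20, which draws CCR6-bearing cells, had 25.7 and 18.6 CPM with Stattic, against 137 and 162 CPM with Kira8 (log2 change -2.76 ± 0.22, adjusted p = 2.61e-05). Its receptor Ccr6 had 10.5 and 13.2 CPM with Stattic, against 55.6 and 49.3 CPM with Kira8 (log2 change -2.14 ± 0.47, adjusted p = 0.00558). None averaged 271 ± 41.8 CPM for Ccl20 and 70.0 ± 46.6 for Ccr6 (SD, n = 3), means above both inhibitors, although the None libraries overlapped the Kira8 libraries for Ccr6. Irf4, which cooperates with BATF at Th17 genes, had 716 and 775 CPM with Stattic, against 1452 and 1425 CPM with Kira8 (log2 change -0.95 ± 0.17, adjusted p = 0.00188). Il1r1, the IL-1 receptor that sustains these cells, was higher with 17.9 and 18.9 CPM with Stattic, against 6.64 and 4.97 CPM with Kira8 (log2 change 1.66 ± 0.23, adjusted p = 0.000341). The signature cytokines were not called. Il17a (chromosome 1, 20730905 to 20734496, plus strand) had 165 and 134 CPM with Stattic, against 149 and 155 CPM with Kira8, with a log2 difference of -0.02 ± 0.54 and an interval of -1.19 to 1.14, and a None mean of 718 ± 600.0 CPM (SD, n = 3). Il17f had 221 and 186 CPM with Stattic, against 148 and 133 CPM with Kira8, with an interval of -0.49 to 1.56, and Il23r 13.3 and 10.2 CPM with Stattic, against 16.5 and 19.9 CPM with Kira8, with -1.29 to 0.02. These intervals still allow differences of more than 2-fold in 1 direction or both. Il10 was higher with Stattic at 7.86 and 7.84 CPM with Stattic, against 2.43 and 3.94 CPM with Kira8 (log2 change 1.30 ± 0.29, adjusted p = 0.00564), while None averaged 26.0 ± 3.52 CPM (SD, n = 3), and the call ended without Kira8 1 (adjusted p = 0.0718).

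Cytotoxic genes were another difference. Gzmb, the protease granzyme B, had 408 and 353 CPM with Stattic, against 84.1 and 85.6 CPM with Kira8 (log2 change 2.17 ± 0.29, adjusted p = 0.000318). Gzma had 61.6 and 42.6 CPM with Stattic, against 10.9 and 10.4 CPM with Kira8 (log2 change 2.29 ± 0.24, adjusted p = 8.14e-05). Perforin, Prf1, had 84.7 and 56.9 CPM with Stattic, against 18.6 and 17.2 CPM with Kira8 (log2 change 1.98 ± 0.36, adjusted p = 0.00186). None averaged 1026 ± 317 CPM for Gzmb and 185 ± 34.0 for Prf1 (SD, n = 3), above both inhibitors, and Kira8+Stattic averaged 126 ± 30.5 and 30.2 ± 12.6. Gzmb and Gzma are on the pathogenic Th17 list, of which 7 of 21 were higher and 3 lower (47.6% called). Gzmb and Prf1 are among the CD8 T and NK markers, of which 10 of 14 were higher, including Nkg7 (1.34 ± 0.25) and Cst7 (1.63 ± 0.23). The 10 became 6 without Stattic 1, without Kira8 1 or without Kira8 3. The coreceptor Cd8a had 36.6 and 28.7 CPM with Stattic, against 19.4 and 13.1 CPM with Kira8 and was not called (adjusted p = 0.0655, and 0.0347 without None 2 or 0.0421 without Kira8+Stattic 3).

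Genes of T cell position and rest went both ways. Of the naive, quiescence and FOXO list 57.1% were called. Ccr7, the receptor that brings T cells into lymph nodes, had 130.0 and 88.0 CPM with Stattic, against 1550.0 and 1567 CPM with Kira8, a 14.3-fold higher level with Kira8 (log2 change -3.84 ± 0.26, adjusted p = 1.09e-05). None averaged 212 ± 42.4 CPM (SD, n = 3), and the log2 change over None was -0.96 ± 0.22 for Stattic and 2.88 ± 0.22 for Kira8. The IL-7 receptor Il7r had 88.4 and 91.3 CPM with Stattic, against 177 and 171 CPM with Kira8 (log2 change -0.95 ± 0.17, adjusted p = 0.00186). The chromatin organiser Satb1 had 678 and 614 CPM with Stattic, against 1397 and 1573 CPM with Kira8 (log2 change -1.20 ± 0.18, adjusted p = 0.000629). The quiescence factor Bach2 had 190.0 and 172 CPM with Stattic, against 409 and 388 CPM with Kira8 (log2 change -1.14 ± 0.21, adjusted p = 0.00187). Other genes of rest went the opposite way. Tob1, an antiproliferative adaptor of mRNA deadenylation, had 161 and 189 CPM with Stattic, against 19.3 and 17.8 CPM with Kira8 (log2 change 3.24 ± 0.18, adjusted p = 7.97e-06). Klf4, a growth-arrest factor, had 103 and 123 CPM with Stattic, against 18.7 and 22.5 CPM with Kira8 (log2 change 2.45 ± 0.31, adjusted p = 0.000236). S1pr1, the receptor for exit from lymph nodes, had 151 and 145 CPM with Stattic, against 66.7 and 59.7 CPM with Kira8 (log2 change 1.23 ± 0.25, adjusted p = 0.00353). Over the whole list of 28 naive, quiescence and FOXO genes 9 were higher, 7 lower and 12 not called, and the 7 became 4 without Stattic 1.

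More NF-kB genes were lower than higher with Stattic. NF-kB dimers enter the nucleus when their inhibitors are degraded and induce those inhibitors again, together with survival and inflammatory genes. Of 22 subunits, inhibitors and targets tested, 13 were lower, 5 higher and 4 not called (81.8% called), with a median log2 change of -1.27. Nfkb2, the p100 subunit, had 194 and 155 CPM with Stattic, against 743 and 834 CPM with Kira8 (log2 change -2.17 ± 0.22, adjusted p = 6.96e-05). Relb, its partner, had 69.3 and 49.4 CPM with Stattic, against 212 and 221 CPM with Kira8 (log2 change -1.87 ± 0.20, adjusted p = 8.65e-05). Rela, the p65 subunit, had 111 and 96.9 CPM with Stattic, against 218 and 228 CPM with Kira8 (log2 change -1.10 ± 0.16, adjusted p = 0.000426). Among the inhibitors, Nfkbie had 25.8 and 32.7 CPM with Stattic, against 121 and 130.0 CPM with Kira8 (log2 change -2.10 ± 0.20, adjusted p = 5.37e-05). Nfkbia had 88.7 and 98.1 CPM with Stattic, against 232 and 255 CPM with Kira8 (log2 change -1.38 ± 0.23, adjusted p = 0.00096). The groups did not overlap for these 5 genes, as for 66.5% of all genes tested. None averaged 388 ± 73.1 CPM for Nfkb2 and 61.4 ± 10.4 for Nfkbie (SD, n = 3), between the inhibitors. Members that were higher with Stattic included Nfkbid, a nuclear inhibitor, with 173 and 179 CPM with Stattic, against 53.4 and 54.3 CPM with Kira8 (log2 change 1.71 ± 0.21, adjusted p = 0.000168). The cytokine Tnf had 107 and 111 CPM with Stattic, against 42.1 and 55.7 CPM with Kira8 (log2 change 1.16 ± 0.22, adjusted p = 0.00252). The related Lta was lower at 18.5 and 12.1 CPM with Stattic, against 60.2 and 64.7 CPM with Kira8 (log2 change -2.03 ± 0.23, adjusted p = 0.000109). Without Kira8 3 the 5 higher became 3.

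Nfkb2 has 3 windows, and the one shown as the example of this group (chr19:46305445-46305744, plus strand) was chosen for its number of matches. It holds a kappaB site, GGGA and TTCC with 2 bases between, in capitals, 2 times on the 2 strands together.
Nfkb2: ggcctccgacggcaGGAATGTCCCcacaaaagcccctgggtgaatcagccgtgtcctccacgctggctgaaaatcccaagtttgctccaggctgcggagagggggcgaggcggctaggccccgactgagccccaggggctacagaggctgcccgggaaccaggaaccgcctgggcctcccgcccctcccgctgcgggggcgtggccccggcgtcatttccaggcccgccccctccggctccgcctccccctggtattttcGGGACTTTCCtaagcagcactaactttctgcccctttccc
Of 19 listed genes with a window 3 (15.8%) held this motif, against 1.63% of all genes. The STAT motif TTCNNNGAA stood in 6 of the 19 (31.6%), against 9.55% of all genes. These matches too describe the letters only.

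Feedback inhibitors of MAP kinase signalling were higher with Stattic. ERK signalling induces phosphatases of the DUSP family and SPRY and SPRED proteins, which then damp it. Of 20 tested 14 were higher, 0 were lower and 6 were not called (70.0% called), with a median log2 change of 1.21. Spry2 had 13.0 and 18.8 CPM with Stattic, against 1.37 and 0.968 CPM with Kira8 (log2 change 3.76 ± 0.30, adjusted p = 2.61e-05). Dusp6, the ERK phosphatase, had 157 and 216 CPM with Stattic, against 28.4 and 28.1 CPM with Kira8 (log2 change 2.72 ± 0.25, adjusted p = 3.91e-05). Spred2 had 163 and 193 CPM with Stattic, against 48.1 and 38.8 CPM with Kira8 (log2 change 2.04 ± 0.20, adjusted p = 5.28e-05). Phlda1 had 170.0 and 176 CPM with Stattic, against 13.5 and 18.0 CPM with Kira8 (log2 change 3.45 ± 0.29, adjusted p = 2.75e-05). Their positions against None differed. Spry2 and Dusp6 averaged 6.18 ± 0.655 and 125 ± 23.0 CPM in None, and the log2 changes of Kira8 over None were -2.40 ± 0.28 and -2.14 ± 0.23. Phlda1 averaged 13.2 ± 2.56 CPM there, where the log2 change over None was 3.71 ± 0.25 for Stattic and 0.25 ± 0.24 for Kira8. Dusp4 was not called, with 318 and 420.0 CPM with Stattic, against 522 and 557 CPM with Kira8 (adjusted p = 0.338).

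Factors of the early response form a separate list. Of 14 AP-1 factors, which include FOS, JUN and some MAF proteins that bind as dimers, 8 were higher, 1 was lower and 5 were not called. The share called was 64.3%, and Maf, given above as lower, is not among the 14. Fosb had 200.0 and 269 CPM with Stattic, against 12.5 and 12.4 CPM with Kira8 (log2 change 4.24 ± 0.45, adjusted p = 8.65e-05). Fos had 151 and 160.0 CPM with Stattic, against 28.4 and 21.9 CPM with Kira8 (log2 change 2.63 ± 0.35, adjusted p = 0.000301). Atf3 had 127 and 140.0 CPM with Stattic, against 10.6 and 18.7 CPM with Kira8 (log2 change 3.19 ± 0.42, adjusted p = 0.000286). Mafk had 203 and 233 CPM with Stattic, against 47.6 and 53.1 CPM with Kira8 (log2 change 2.11 ± 0.19, adjusted p = 3.65e-05). Junb was the lower member, with 256 and 256 CPM with Stattic, against 643 and 674 CPM with Kira8 (log2 change -1.36 ± 0.19, adjusted p = 0.00038), and Fosl2 was not called. Among 22 T cell activation genes, 7 were higher and 5 lower (54.5% called). Egr2, a calcium-induced factor that restrains T cells, had 143 and 188 CPM with Stattic, against 31.3 and 33.8 CPM with Kira8 (log2 change 2.35 ± 0.24, adjusted p = 6.46e-05). The orphan receptor Nr4a2 had 250.0 and 280.0 CPM with Stattic, against 46.6 and 38.9 CPM with Kira8 (log2 change 2.63 ± 0.41, adjusted p = 0.000698). The inhibitory receptor Pdcd1, known as PD-1, had 101 and 88.4 CPM with Stattic, against 32.0 and 28.1 CPM with Kira8 (log2 change 1.66 ± 0.20, adjusted p = 0.000171). For Egr2 and Pdcd1 the None means of 149 ± 32.6 and 107 ± 18.9 CPM (SD, n = 3) lay within or near the Stattic values, and Kira8 lay below them.

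Genes of TGF-beta and Notch signalling were called higher more often than lower. Of 26 TGF-beta and activin pathway genes 10 were higher, 2 lower and 14 not called, and the 10 became 6 without Kira8 3. Smad7, the inhibitory SMAD, had 205 and 233 CPM with Stattic, against 29.4 and 28.8 CPM with Kira8 (log2 change 2.91 ± 0.18, adjusted p = 7.97e-06). Id3, a SMAD-induced inhibitor of E proteins, had 37.3 and 35.5 CPM with Stattic, against 4.67 and 3.74 CPM with Kira8 (log2 change 3.11 ± 0.31, adjusted p = 5.96e-05). Fst, the activin-binding protein follistatin, had 15.6 and 15.8 CPM with Stattic, against 1.53 and 1.14 CPM with Kira8 (log2 change 3.56 ± 0.43, adjusted p = 0.000168). Bambi, a decoy receptor, had 11.1 and 12.4 CPM with Stattic, against 0.96 and 1.02 CPM with Kira8 (log2 change 3.57 ± 0.34, adjusted p = 4.68e-05); it was named after its value was seen. Of 18 Notch pathway genes 7 were higher, 2 lower and 9 not called, and the 7 became 4 without Kira8 1. Hey1, a repressor that Notch induces, had 13.6 and 16.8 CPM with Stattic, against 0.488 and 0.518 CPM with Kira8 (log2 change 4.91 ± 0.38, adjusted p = 2.45e-05), and Hey2 had 1.17 and 1.39 CPM with Stattic and no counts with Kira8, a level at least 51.8-fold higher against 3 counts over the Kira8 libraries. Nrarp, a feedback inhibitor of Notch, had 5.67 and 5.99 CPM with Stattic, against 0.863 and 1.3 CPM with Kira8 (log2 change 2.43 ± 0.45, adjusted p = 0.00198). Rbpj, the DNA-binding partner of Notch, was lower (-0.79 ± 0.26), a call that ended without any of the 4 Stattic and Kira8 libraries (adjusted p 0.0965 to 0.175) and without Kira8+Stattic 2 (0.0573) or 3 (0.0558).

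**Figure D3:**
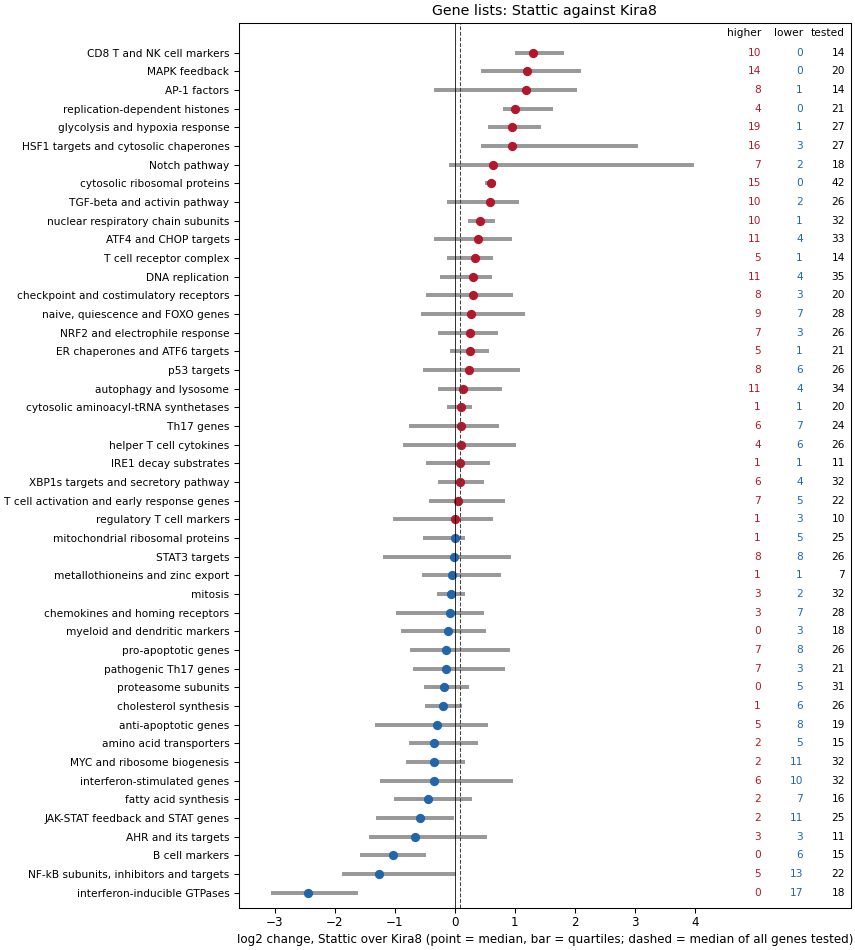
Median log2 change of Stattic over Kira8 (points, with bars from the lower to the upper quartile) of the tested genes in 46 lists, with the numbers called higher, called lower and tested at the right and a dashed line at the median of all genes, 0.09. The interferon-inducible GTPases lie lowest at -2.44 and the NF-kB genes next at -1.27, and the CD8 T and NK markers (1.31), MAPK feedback (1.21) and AP-1 (1.18) lie highest.

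Glycolytic transcripts were higher with Stattic, and 74.1% of the glycolysis and hypoxia list were called. Glycolysis turns glucose into lactate, and several of its genes, like others of the hypoxia response, are induced by HIF1alpha. Of 27 tested 19 were higher, 1 was lower and 7 were not called, with a median log2 change of 0.95, and without Kira8 3 the 19 became 12. The glucose transporter Slc2a3 had 425 and 355 CPM with Stattic, against 77.0 and 95.9 CPM with Kira8 (log2 change 2.17 ± 0.21, adjusted p = 4.68e-05). Triose phosphate isomerase, Tpi1, had 1584 and 1136 CPM with Stattic, against 321 and 338 CPM with Kira8 (log2 change 2.05 ± 0.21, adjusted p = 7.69e-05). Lactate dehydrogenase, Ldha, had 2373 and 1864 CPM with Stattic, against 899 and 732 CPM with Kira8 (log2 change 1.38 ± 0.19, adjusted p = 0.000396). Vegfa, a hypoxia-induced growth factor, had 210.0 and 263 CPM with Stattic, against 41.3 and 61.3 CPM with Kira8 (log2 change 2.21 ± 0.27, adjusted p = 0.000192). Against None the members differed. For Slc2a3 and Vegfa None averaged 74.9 ± 4.72 and 28.9 ± 7.75 CPM (SD, n = 3), means below both inhibitors, and for Ldha it averaged 1674 ± 115 CPM, and the log2 change of Kira8 over None was -1.04 ± 0.18. Hif1a was not called, with 1714 and 1773 CPM with Stattic, against 2431 and 2581 CPM with Kira8 (adjusted p = 0.067, and 0.0262 without None 1 or 0.0285 without None 2).

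The counts for lipid and ribosome genes moved with the library left out. Shares called were 56.2% for fatty acid synthesis and 40.6% for MYC and ribosome biogenesis. For cytosolic ribosomal proteins the share was 35.7% and for nuclear respiratory chain subunits 34.4%. Of 16 fatty acid synthesis genes 7 were lower and 2 higher, with the 7 at 3 without Stattic 3 and at 4 without Kira8 1, and the 2 at 0 without any 1 of the 4 libraries. Fasn, fatty acid synthase, had 404 and 396 CPM with Stattic, against 811 and 846 CPM with Kira8 (log2 change -1.05 ± 0.24, adjusted p = 0.00726). The desaturase Scd2 had 708 and 589 CPM with Stattic, against 1477 and 1467 CPM with Kira8 (log2 change -1.18 ± 0.25, adjusted p = 0.00408). Of 26 cholesterol synthesis genes 6 were lower and 1 higher. The share called was 26.9%, against 28.7% of all genes tested and 40.2% of those averaging at least 1 CPM. Among the lower was lanosterol synthase, Lss, at 62.3 and 52.1 CPM with Stattic, against 141 and 124 CPM with Kira8 (log2 change -1.21 ± 0.21, adjusted p = 0.00135). Of 32 MYC and ribosome biogenesis genes 11 were lower and 2 higher, and the 11 became 3 without Stattic 3 or without Kira8 3. The nucleolar GTPase Gnl3 had 73.2 and 67.9 CPM with Stattic, against 145 and 168 CPM with Kira8 (log2 change -1.15 ± 0.20, adjusted p = 0.00139), against a None mean of 320.0 ± 67.2 CPM (SD, n = 3) above both inhibitors. Of 42 cytosolic ribosomal protein genes 15 were higher and 0 lower, with a median of 0.60, but the 15 became 0 without Stattic 1, Kira8 1 or Kira8 3, and 32 without None 1. Of 32 nuclear respiratory chain subunits 10 were higher and 1 lower, and the 10 became 1 without Stattic 1 or Kira8 3 and 2 without Kira8 1.

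The transcripts of the Kira8 target and of its substrate were not called. IRE1alpha splices Xbp1 so that XBP1s can induce secretory genes, while ATF6 induces ER chaperones and ATF4, downstream of PERK, induces amino acid genes and CHOP. Ern1 (chromosome 11, 106394650 to 106487852, minus strand) was not called, with 25.8 and 35.8 CPM with Stattic, against 33.6 and 35.6 CPM with Kira8 and an interval of -0.82 to 0.48. Xbp1 had 193 and 172 CPM with Stattic, against 147 and 111 CPM with Kira8 and was not called (log2 difference 0.50 ± 0.19, adjusted p = 0.0718, and 0.0481 without None 1). Gene counts do not show its splicing. Of 32 XBP1s targets and secretory genes 31.2% were called, against 28.7% of all genes tested and 40.2% of those averaging at least 1 CPM. In this list 6 were higher, 4 lower and 22 not called, and the count higher fell without Stattic 1, Kira8 1 or Kira8 3. Dnajb9, the ER co-chaperone ERdj4, had 125 and 169 CPM with Stattic, against 30.7 and 31.4 CPM with Kira8 (log2 change 2.24 ± 0.25, adjusted p = 0.000113). The COPII coat gene Sec31a had 104 and 112 CPM with Stattic, against 206 and 218 CPM with Kira8 (log2 change -0.97 ± 0.16, adjusted p = 0.000865). Of 11 mRNAs cleaved by IRE1alpha in other cells 1 was higher and 1 lower (18.2% called). Those are Bloc1s1, the best-known substrate, with 23.3 and 15.3 CPM with Stattic, against 8.22 and 9.17 CPM with Kira8 (log2 change 1.15 ± 0.26, adjusted p = 0.00698), whose call ended without Kira8 1 (adjusted p = 0.0647) or Stattic 1 (0.0678), and Ergic2, whose call ended without any of the 4 libraries (0.0772 to 0.128).

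Of 21 ER chaperone and ATF6 target genes 28.6% were called, against 28.7% of all genes tested and 40.2% of those averaging at least 1 CPM. In this list 5 were higher, 1 lower and 15 not called, and the 5 became 1 or 2 without any 1 of the 4 libraries. P4hb, a protein disulfide isomerase, had 849 and 833 CPM with Stattic, against 397 and 364 CPM with Kira8 (log2 change 1.14 ± 0.17, adjusted p = 0.000654). Hspa5, the chaperone BiP, had 1009 and 1267 CPM with Stattic, against 474 and 482 CPM with Kira8 (log2 change 1.25 ± 0.31, adjusted p = 0.00963), and its call ended without Kira8 1 (adjusted p = 0.0671), Kira8 3 (0.0657) or Stattic 3 (0.0636). Its mean in None was 1138 ± 453 CPM (SD, n = 3). Of 33 ATF4 and CHOP targets 11 were higher, 4 lower and 18 not called. The share called was 45.5%, and the count higher fell without Kira8 1. Ppp1r15a, the phosphatase subunit GADD34 that restores translation, had 383 and 443 CPM with Stattic, against 85.7 and 95.9 CPM with Kira8 (log2 change 2.18 ± 0.23, adjusted p = 7.93e-05). Sesn2, a stress-induced inhibitor of mTORC1, had 201 and 216 CPM with Stattic, against 35.8 and 51.6 CPM with Kira8 (log2 change 2.25 ± 0.26, adjusted p = 0.000132). Ddit3, the factor CHOP, had 95.2 and 94.6 CPM with Stattic, against 42.0 and 58.5 CPM with Kira8 (log2 change 0.92 ± 0.20, adjusted p = 0.00495, and 0.0762 without Kira8 1). None averaged 27.8 ± 5.47 CPM for Ppp1r15a and 13.5 ± 0.561 for Ddit3 (SD, n = 3), below both inhibitors.

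The study's title names survival pathways, and anti-apoptotic genes differed in both directions. BCL2 family guardians hold back BAX and BAK at mitochondria, and BH3-only proteins neutralise those guardians. Of 19 anti-apoptotic genes 8 were lower with Stattic, 5 higher and 6 not called (68.4% called). Bcl2 (chromosome 1, 106538178 to 106714274, minus strand) had 77.8 and 57.0 CPM with Stattic, against 244 and 296 CPM with Kira8 (log2 change -2.0 ± 0.28, adjusted p = 0.000383). Bcl2l1, which encodes BCL-XL (chromosome 2, 152780668 to 152831728, minus strand), had 42.2 and 36.4 CPM with Stattic, against 149 and 156 CPM with Kira8 (log2 change -1.96 ± 0.25, adjusted p = 0.000248). None averaged 237 ± 61.4 and 148 ± 48.5 CPM (SD, n = 3), and the None libraries overlapped the Kira8 range for both. Birc3, the inhibitor of apoptosis cIAP2, had 66.5 and 52.5 CPM with Stattic, against 296 and 312 CPM with Kira8 (log2 change -2.35 ± 0.24, adjusted p = 7.55e-05). Bcl2l2, which encodes BCL-W, had 12.4 and 9.79 CPM with Stattic, against 32.4 and 35.0 CPM with Kira8 (log2 change -1.60 ± 0.20, adjusted p = 0.000194). Xiap had 74.6 and 104 CPM with Stattic, against 192 and 177 CPM with Kira8 (log2 change -1.05 ± 0.23, adjusted p = 0.00563, and 0.0549 without Stattic 1). For Birc3 and Xiap None averaged 149 ± 31.8 and 111 ± 24.5 CPM (SD, n = 3), between the inhibitors. The 5 higher members were Mcl1, Bag1 and the near-identical Bcl2a1a, Bcl2a1b and Bcl2a1d, which may share reads. Mcl1 had 774 and 831 CPM with Stattic, against 559 and 531 CPM with Kira8 (log2 change 0.56 ± 0.19, adjusted p = 0.0436), and its call ended without any of the 4 libraries (adjusted p 0.103 to 0.229) and without Kira8+Stattic 2 (0.0649). Each of the 5 lost its call without Kira8 3. The 5 became 0 then, 1 without Stattic 1, 2 without Kira8 1 and 3 without Stattic 3 or Kira8+Stattic 2.

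Genes that promote death went both ways. Of 26 tested 7 were higher, 8 lower and 11 not called (57.7% called). Genes of a pair of death receptors were lower with Stattic. Tnfrsf10b, the TRAIL receptor, had 6.57 and 6.49 CPM with Stattic, against 27.6 and 34.3 CPM with Kira8 (log2 change -2.24 ± 0.26, adjusted p = 0.000152). Fas had 23.1 and 20.1 CPM with Stattic, against 61.8 and 64.4 CPM with Kira8 (log2 change -1.55 ± 0.20, adjusted p = 0.000237). The BH3-only gene Bbc3, which encodes PUMA, had 41.0 and 50.8 CPM with Stattic, against 13.8 and 21.2 CPM with Kira8 (log2 change 1.39 ± 0.38, adjusted p = 0.0166, and 0.136 without Kira8 1 or 0.083 without Stattic 3). Bcl2l11, which encodes BIM, had 109 and 147 CPM with Stattic, against 86.9 and 70.1 CPM with Kira8 (log2 change 0.70 ± 0.23, adjusted p = 0.0371), a call that ended without Kira8 1 (adjusted p = 0.0772), Kira8 3 (0.252) or Stattic 3 (0.252). None averaged 6.06 ± 2.49 CPM for Bbc3 and 37.6 ± 2.48 for Bcl2l11 (SD, n = 3), below both inhibitors. Without Kira8 1 the 7 higher became 3 and the 8 lower became 5, and the 7 became 3 without Kira8 3 and 4 without Stattic 3.

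**Figure D4:**
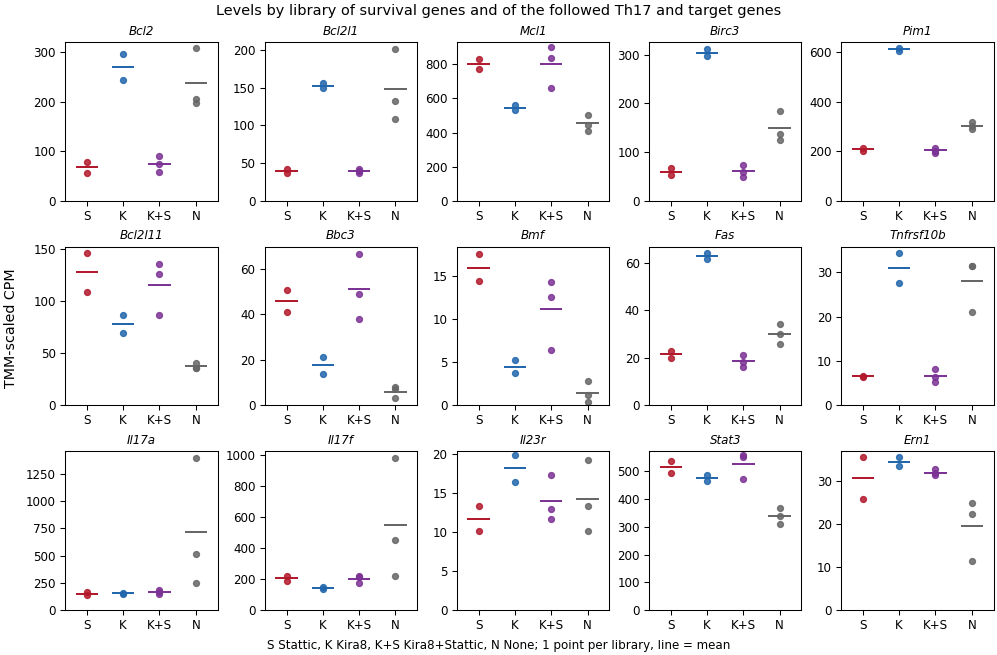
Levels (vertical axes, TMM-scaled CPM from 0) of 10 survival and death genes and 5 Th17 and target genes, with 1 point per library and a line at the mean for Stattic (S, n = 2), Kira8 (K, n = 2), Kira8+Stattic (K+S, n = 3) and None (N, n = 3). Stattic libraries lie below Kira8 libraries for Bcl2, Bcl2l1, Birc3, Pim1, Fas and Tnfrsf10b and above them for Mcl1, Bcl2l11, Bbc3 and Bmf. The Mcl1 and Bmf calls ended without any 1 of the 4, and the Bcl2l11 and Bbc3 calls without some of them. Il17a libraries of both inhibitors lie between 134 and 165 CPM.

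The remaining genes with the largest changes come from no single list. Arrdc3, an arrestin-like adaptor, had 162 and 247 CPM with Stattic, against 11.9 and 8.0 CPM with Kira8 (log2 change 4.36 ± 0.28, adjusted p = 7.97e-06). Rasd1, a dexamethasone-induced RAS-like GTPase, had 9.21 and 12.7 CPM with Stattic, against 0.309 and 0.384 CPM with Kira8 (log2 change 4.97 ± 0.43, adjusted p = 3.1e-05). Arl4d, a small GTPase, had 13.3 and 15.2 CPM with Stattic, against 0.309 and 0.618 CPM with Kira8 (log2 change 4.94 ± 0.36, adjusted p = 1.6e-05). Mmp13, a collagenase, had 19.7 and 32.4 CPM with Stattic, against 0.456 and 1.39 CPM with Kira8 (log2 change 4.82 ± 1.05, adjusted p = 0.00539), and its call ended without Kira8 1 (adjusted p = 0.0533), with a log2 change of 5.82 without Kira8 3. On the lower side, Zhx2, a homeobox repressor, had 15.3 and 10.4 CPM with Stattic, against 145 and 176 CPM with Kira8 (log2 change -3.65 ± 0.33, adjusted p = 3.87e-05) with a None mean of 30.8 ± 8.66 CPM (SD, n = 3). Cyp1a1, the cytochrome that the aryl hydrocarbon receptor induces, had 1.5 and 0.482 CPM with Stattic, against 12.4 and 23.2 CPM with Kira8 (log2 change -4.16 ± 0.76, adjusted p = 0.00196), and the log2 change was -5.21 without Stattic 1 and -3.56 without Stattic 3. Its repressor Ahrr had 1.56 and 1.19 CPM with Stattic, against 8.45 and 9.68 CPM with Kira8 (log2 change -2.71 ± 0.61, adjusted p = 0.00606, and 0.0527 without Stattic 3), in contrast to Ahr itself, which was higher. Lad1, a basement membrane protein, had 0.645 and 0.925 CPM with Stattic, against 16.9 and 30.1 CPM with Kira8 (log2 change -4.90 ± 0.65, adjusted p = 0.000297).

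**Figure D5:**
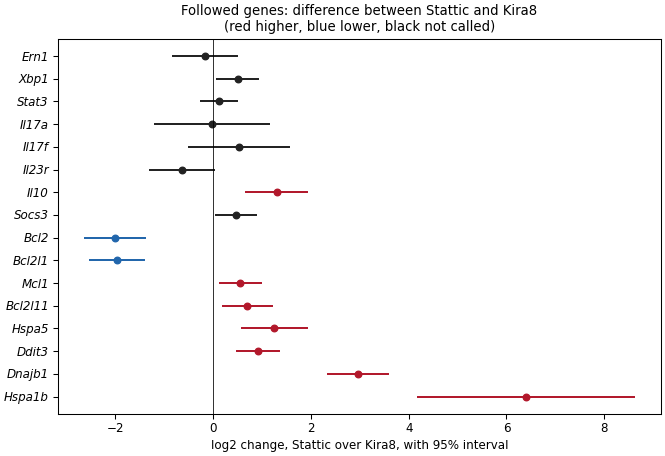
Log2 change of Stattic over Kira8 (points) with its 95% interval (bars) for 16 followed genes, in red where called higher, blue where called lower and black where not called. Hspa1b and Dnajb1 lie farthest to the right, Bcl2 and Bcl2l1 lie to the left with log2 changes near -2.0, and the intervals of Ern1, Stat3, Il17a, Il17f and Il23r include 0.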

How the data were processed

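The deposited table holds raw counts per gene, made by the authors, for 55401 Ensembl genes in 12 libraries, on mm10 per the submitters' processing notes. The sources used here do not give the aligner, the counter, the annotation, strand use or the handling of multiply mapping reads, so near-identical, overlapping and antisense genes are uncertain. Titles gave groups and replicate numbers. Genes passing filterByExpr were scaled by TMM and tested in edgeR 4.0.16 (R 4.3.3) with a coefficient per group and the contrast Stattic minus Kira8, in 10 libraries and in 12, with Benjamini-Hochberg adjustment at 0.05. Alternatives used limma 3.58.1, DESeq2 1.42.0, RLE size factors, library size alone, other filters, a 1.5-fold threshold, a replicate block, Stattic and Kira8 libraries only, and each library left out.

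Gene positions come from the GENCODE annotation of mm10 and promoter windows from RefSeq. The members, the lists (48, with 985 genes, 971 tested) and the alternatives were chosen with earlier results of these data known, and lists are described by counts and medians without a set test. Named genes are the 16 followed genes, the 15 with the largest change each way among called genes averaging at least 5 CPM in the 4 libraries without overlap (symbols of Gm or Rik form left out), and up to 4 members per list by adjusted p with the largest each way. Other list members were picked for the text with their values known, and some genes that the rule picks are not reported here.

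Deviations from group means of Stattic and Kira8 libraries with the same number correlated at 0.62, 0.61 and 0.55 across 15778 genes. Those means include the outlying replicate 2 of both groups, so these values cannot show whether the numbers are pairs. The labels do not say so, and the main fits did not pair libraries, which only the replicate block did. In the 10 libraries, with 2 libraries in each group, both pairs give the same value by construction, 0.19 across 13496 genes. On counts simulated for 10 libraries (20242 genes) edgeR recovered 41 of 100 genes changed 2-fold and 79 of 100 changed 4-fold, with 5 of 125 calls false. For 12 libraries (20534 genes) it recovered 0 of either size. Only 200 genes were changed, all averaging above 1 CPM, and every other group difference was removed. The spread followed the trend with level and not each gene. In the data 28.7% of genes were called, many of them fainter, so these shares are not error rates of the real calls. A count of 3 was 0.0507 to 0.0559 CPM in the 4 libraries, which covers counting error only.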

Additional observations from a re-analysis of the deposited data

How the results depend on the processing

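In the 10 libraries, the 2906 higher and 3200 lower genes stayed within 1.5 times of these counts with DESeq2 (3824 and 3562), limma voom (2938 and 3273), RLE size factors (3031 and 3107), no filter (2535 and 2946), a filter at 1 CPM (3125 and 3138), library size alone (2304 and 3787) and a fit of Stattic and Kira8 libraries only (2996 and 3383), and moved to 1400 and 1472 when tested against a 1.5-fold change. With a library left out they ranged from 1318 to 3495 higher and from 1862 to 3578 lower, and a lone Stattic or Kira8 library was then assumed to vary like the other groups. In all 12 libraries, where edgeR called 0 each way, DESeq2 called 897 higher and 707 lower, voom with quality weights 3616 and 3194, and RLE size factors and the filter at 1 CPM 1 lower gene each, and with a library left out the counts ranged from 0 to 97 higher and from 0 to 62 lower. The common dispersion was 0.143 in the 10 libraries and 1.01 in the 12. With the replicate block, pairing libraries of the same number, 3060 genes were higher and 3459 lower in the 10 libraries and 0 each way in the 12, so it moved no count by over 1.5 times.

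Of 155 genes that the naming rule's followed and largest-change parts or the text chose, 135 lost their call in all 12 libraries with the direction kept. Another 15 were called in neither fit, and 5 turned direction. No call was kept there, since edgeR called 0 of 20993 genes in the 12 libraries. With a library left out, 1479 of the gene values kept direction and call, 56 lost the call and 10 gained it; under the other alternatives these were 1336, 28 and 27. Directions turned only for 8 of the 155 genes under the alternatives run: Ern1 was at 0.04 without Stattic 1 (-0.43 to 0.04 with a library left out) and 0.00 in all 12 libraries, Stat3 at -0.02 by library size alone, Il17a at 0.01 with DESeq2 or RLE size factors, 0.03 with the filter at 1 CPM, 0.12 without Stattic 3 (-0.19 to 0.12) and 0.00 without Kira8 3, and Cd3e at 0.10 without Stattic 3 (-0.30 to 0.10) and 0.09 without Kira8 1. In all 12 libraries Ankrd33b was at 0.22, Zfp799 at 0.06, Rsad2 at -1.18 and Hsf2 at 0.40. The cause was not tested. Depth limits faint genes, since 3 counts are 0.0507 to 0.0559 CPM.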

Other observations

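Zinc finger genes were a further difference, noticed after the values were seen. Of 348 tested genes whose symbol is Zfp and a number, 147 (42.2%) were lower with Stattic and 29 (8.33%) higher, with a median log2 change of -0.78, against 15.1% lower, 13.7% higher and a median of 0.09 over all genes tested. Zfp329 had 1.78 and 2.16 CPM with Stattic, against 30.5 and 31.9 CPM with Kira8 (log2 change -3.98 ± 0.37, adjusted p = 4.43e-05). Zfp933 had 2.11 and 1.89 CPM with Stattic, against 19.9 and 17.7 CPM with Kira8 (log2 change -3.23 ± 0.27, adjusted p = 2.68e-05). Zfp809, a silencer of retroviral DNA in mouse stem cells, had 4.81 and 5.22 CPM with Stattic, against 35.9 and 33.2 CPM with Kira8 (log2 change -2.78 ± 0.26, adjusted p = 4.68e-05). None averaged 23.5 ± 9.45, 17.6 ± 2.87 and 26.3 ± 6.63 CPM for these (SD, n = 3), nearer to Kira8 than to Stattic.

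Among small RNAs made by RNA polymerase III, 5 were higher with Stattic. They were picked after their values were seen, so this count cannot be weighed against the 13.7% of all genes tested. Each was higher in the outlying libraries of both treatments than in the 4 libraries compared. Scaled over 12 libraries, Stattic 2 held 64.5 (Rmrp) to 2060 (Rpph1) CPM and Kira8 2 held 29.0 (Rmrp) to 598 (Rn7s1) CPM. Among the 5, Rn7s1 and Rn7s2 are near-identical copies that may share reads. Rpph1, the RNA of RNase P, had 22.1 and 18.0 CPM with Stattic, against 0.456 and 0.601 CPM with Kira8 (log2 change 5.24 ± 0.60, adjusted p = 0.000131). Rn7sk, which holds back the elongation factor P-TEFb, had 61.2 and 69.2 CPM with Stattic, against 6.66 and 8.93 CPM with Kira8 (log2 change 3.06 ± 0.31, adjusted p = 6.28e-05). Rmrp had 8.91 and 8.13 CPM with Stattic, against 0.163 and 0.467 CPM with Kira8 (log2 change 4.75 ± 0.83, adjusted p = 0.00143, with 5.69 without Kira8 3). In all 12 libraries none of the 5 was called by edgeR, with log2 changes of 0.35 (Rn7s1) to 3.12 (Rpph1) and adjusted p of 0.987 and 0.642 for these. The sources used here do not say how such short RNAs entered the libraries.

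Other single genes with large differences were also chosen after their values were seen. Cited2, which encodes a p300-binding factor, had 288 and 282 CPM with Stattic, against 30.3 and 31.0 CPM with Kira8 (log2 change 3.22 ± 0.21, adjusted p = 7.97e-06). The pseudokinase gene Trib1 had 174 and 248 CPM with Stattic, against 14.4 and 11.6 CPM with Kira8 (log2 change 4.02 ± 0.31, adjusted p = 2.45e-05). Prdm1, which encodes BLIMP-1, had 42.5 and 53.5 CPM with Stattic, against 3.68 and 3.21 CPM with Kira8 (log2 change 3.80 ± 0.38, adjusted p = 6.28e-05), and None averaged 11.5 ± 4.3 CPM (SD, n = 3). Ikzf4, the Ikaros family factor Eos, was lower with 6.27 and 8.9 CPM with Stattic, against 83.2 and 72.7 CPM with Kira8 (log2 change -3.36 ± 0.32, adjusted p = 4.68e-05).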
